A study of Saccharomyces cerevisiae with 12 samples.

Results

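The genes described here make and break down trehalose in *Saccharomyces cerevisiae*, and were followed in bmh1Δ and bmh2Δ cells kept with or without potassium. They were chosen by name, as the rows of the deposited table annotated *TPS1*, *TPS2*, *TPS3*, *TSL1*, *NTH2*, *ATH1*, *PGM2* and *UGP1*, and they are 8 of the 6053 genes of the table. The strains lack *BMH1* or *BMH2*, replaced by a loxP site, in BY4741 (*MATa his3Δ1 leu2Δ0 met15Δ0 ura3Δ0*), so both groups of each comparison also carry the marker deletions of BY4741. Cultures grew with 50 mM KCl in medium low in other alkali cations, were washed, and were held for 60 min either with 50 mM KCl again or without KCl (0 mM). Each of the 4 groups has 3 libraries, and libraries of BY4741 itself were not analysed here. The RNA was read by SAGE-tag sequencing, which takes 1 short tag beside the last CATG of each polyadenylated transcript, and levels are in RPM, a gene's share of the matched tags of its library scaled to 1000000.

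Trehalose is a sugar of 2 linked glucose units that yeast keeps as a reserve and as a protectant under stress. Pgm2, the main phosphoglucomutase, and Ugp1, the UDP-glucose pyrophosphorylase, lead from glucose 6-phosphate to UDP-glucose. Tps1 joins both into trehalose 6-phosphate and Tps2 removes the phosphate, in a complex with the large subunits Tsl1 and Tps3. The neutral trehalases Nth1 and Nth2 and the acid trehalase Ath1 split trehalose to glucose. Bmh1 and Bmh2 are the yeast 14-3-3 proteins, which bind phosphorylated proteins, among them Nth1. *NTH1* was not chosen as one of the 8 genes and is given beside them as their best known neighbour in the pathway.

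In the S288C reference (RefSeq, build R64) each of the 8 genes is 1 uninterrupted coding exon. The tag read for a gene lies in the last part of its transcript. The tag predicted from the reference is shown here for the genes without a further CATG in the 200 bases after the stop codon. Capitals mark the CATG anchor, and the 17 bases after it complete an assumed tag of 21 bases that occurs once in the reference genome. These predictions were not compared with the tags that were counted, and a CATG further on was not searched for.
TPS1: CATGaattatacagtacatca
TSL1: CATGtaaatgggttaaacgaa
TPS3: CATGacttgacagccgcctaa
PGM2: CATGgtctaaactgttatgag
NTH1: CATGatgacaaaggcttttgt
The tag of *TPS3* ends with the stop codon of its coding sequence on chromosome XIII, from base 790205 to 790225. The *TSL1* tag is also on chromosome XIII, from base 73864 to 73884 and 57 bases before the end of the coding sequence, counted from the anchor. The *TPS1* tag is on chromosome II from base 488941 to 488961. In *PGM2* the last CATG stands 663 bases before the end of the coding sequence, at 476539 to 476559 of chromosome XIII. In *TPS2*, *NTH2*, *ATH1* and *UGP1* a CATG follows within 200 bases of the stop codon. For these 4 genes the annotation gives no transcript end, so the site that was read is not known and no tag is shown.

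Many genes of this pathway are targets of Msn2 and Msn4, transcription factors of the general stress response that bind the stress response element with the core CCCCT or, on the other strand, AGGGG. The 300 bases from 450 to 151 before the start codon are shown for the catalytic subunit gene *TPS1*, for *TSL1* and *PGM2*, which with *TPS1* hold the most cores, and for *NTH2*, which holds none. Capitals mark the cores.
TPS1: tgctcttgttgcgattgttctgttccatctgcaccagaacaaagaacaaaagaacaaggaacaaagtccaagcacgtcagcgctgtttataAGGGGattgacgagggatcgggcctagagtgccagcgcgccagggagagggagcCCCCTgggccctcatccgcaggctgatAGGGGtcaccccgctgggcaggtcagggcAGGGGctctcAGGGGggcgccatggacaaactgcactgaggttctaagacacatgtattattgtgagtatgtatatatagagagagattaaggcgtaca
TSL1: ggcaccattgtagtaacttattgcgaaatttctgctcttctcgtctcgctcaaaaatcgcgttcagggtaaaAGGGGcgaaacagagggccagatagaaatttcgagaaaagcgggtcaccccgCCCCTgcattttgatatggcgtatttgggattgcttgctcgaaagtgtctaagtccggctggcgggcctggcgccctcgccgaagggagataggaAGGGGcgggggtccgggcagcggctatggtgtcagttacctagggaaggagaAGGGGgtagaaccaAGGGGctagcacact
PGM2: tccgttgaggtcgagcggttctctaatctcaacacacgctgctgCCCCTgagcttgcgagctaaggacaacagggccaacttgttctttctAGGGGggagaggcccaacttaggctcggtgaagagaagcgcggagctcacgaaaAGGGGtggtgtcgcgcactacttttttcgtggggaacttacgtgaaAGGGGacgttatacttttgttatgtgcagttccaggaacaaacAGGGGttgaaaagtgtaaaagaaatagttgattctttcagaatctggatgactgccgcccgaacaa
NTH2: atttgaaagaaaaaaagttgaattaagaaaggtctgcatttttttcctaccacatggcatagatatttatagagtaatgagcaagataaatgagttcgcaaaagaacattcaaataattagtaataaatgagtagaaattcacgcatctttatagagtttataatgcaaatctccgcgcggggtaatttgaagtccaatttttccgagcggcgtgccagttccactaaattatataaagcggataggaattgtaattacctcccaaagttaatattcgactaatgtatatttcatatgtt
These windows lie on chromosome II from base 490543 to 490842 (*TPS1*, minus strand), on chromosome XIII from 70174 to 70473 (*TSL1*, plus strand) and from 477757 to 478056 (*PGM2*, minus strand), and on chromosome II from 241434 to 241733 (*NTH2*, minus strand). The *TPS1*, *TSL1* and *PGM2* windows hold 5 cores each. The windows of *TPS2* and *UGP1* hold 3, that of *TPS3* holds 2, that of *ATH1* holds 1 and that of *NTH1* holds 2. Over all genes 23.37% of 6025 windows of this length hold at least 1 core and 3.78% hold at least 2. Of the 8 genes, 7 hold at least 1 and 6 hold at least 2. Parts of some windows belong to a neighbouring gene, 138 bases for *TSL1*, 26 for *NTH2*, 94 for *TPS3* and 281 for *UGP1*. A core in the sequence is a match of letters and not a measured binding site.

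**Figure D1:**
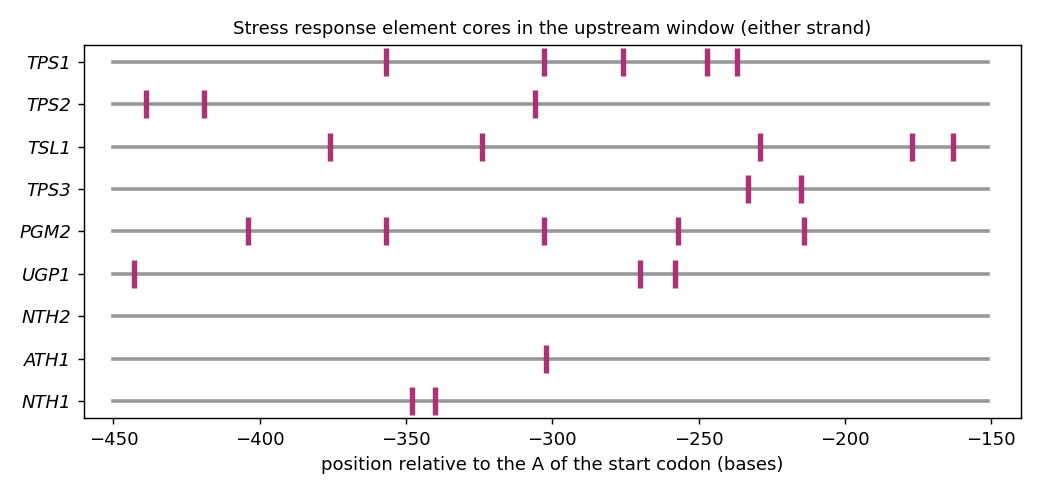
Positions of CCCCT or AGGGG cores (bars) in the 300 bases from 450 to 151 before the start codon (grey lines), for the 8 genes and *NTH1*. *TPS1*, *TSL1* and *PGM2* carry 5 cores each and *NTH2* carries 0.

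Some properties of the libraries touch every value that follows. Column names place 4 bmh1Δ libraries in lane 1, each named by its index (GGATAT and CTATAG at 50 mM, GTCACG and TGCACT at 0 mM KCl). The third bmh1Δ library of each condition has a letter (B50 in lane 7, B0 in lane 6), as have all bmh2Δ libraries (C, D and E in lanes 5 and 6), so bmh2Δ has no library of lane 1. In B0 no gene of 6053 was below the sum of the other 7 lettered libraries, which amount to 74.9% of its smallest value steps, and in GTCACG 1 gene was below the sum of the other 3 lane 1 libraries, which amount to 60.9%. B0 and GTCACG, both bmh1Δ at 0 mM KCl, may therefore hold reads of other libraries. Several changes of the trehalose genes with KCl are given with and without B0 and GTCACG, and some counts also after subtraction of the other libraries. Counts for related gene lists, tests between the strains, and fits with the lane or the letter as a term are given only with B0 and GTCACG as deposited. If 1 step of the values were 1 read, the libraries would hold 6237952 (B50) to 107579363 (B0) reads. *BMH2* was at 197 to 505 RPM in bmh1Δ and at most 0.291 RPM in bmh2Δ, while *BMH1* was also read in bmh1Δ, at 536 to 4170 RPM against 4048 to 5391 RPM in bmh2Δ. The highest *BMH1* value in bmh1Δ is that of B0, and the other bmh1Δ libraries reached at most 2189 RPM (CTATAG). Where these tags lie relative to the deleted stretch was not examined, so they do not check that deletion. The *MATa* genes *MFA1*, *STE2* and *BAR1* were read in all libraries, *STE3* of *MATα* cells was at most 6.09 RPM and *URA3* at most 0.328 RPM, while *HIS3*, of which his3Δ1 removes an inner part, was at 2.21 to 25.2 RPM. The median SD between libraries on the log2(RPM + 1) scale was 0.745 and 0.509 in bmh1Δ at 50 and 0 mM KCl, against 0.244 and 0.320 in bmh2Δ. A level in RPM is an average over the culture and a share of all tags, so a change in every cell and a change in some cells cannot be told apart.

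Without potassium the genes of the synthesis branch were at higher mean levels in both strains, and *NTH2* was not. Averaged over the strains, *TSL1*, *TPS1* and *UGP1* rose and no member fell, by limma on log2(RPM + 1) of 5278 genes. A gene was tested if 3 or more libraries reached 3 RPM, which all 8 genes did. This is 3 of 8 genes, where 6.74% of all tested genes rose and 3.85% fell at an adjusted p (Benjamini-Hochberg) under 0.05. With B0 and GTCACG left out TGCACT alone stands for bmh1Δ without KCl, so only the log2 changes are given for that fit. In bmh1Δ they become 2.33 for *TPS1*, 2.88 for *TPS2*, 1.21 for *TPS3*, 2.82 for *TSL1* and 3.18 for *PGM2*. For *UGP1* the value is 1.31, for *NTH2* -0.44 and for *ATH1* -0.51. The median log2 change with all libraries was 1.14 over the 8 genes and 0.09 over all tested genes. Taken by strain, 1 of the 8 genes rose in bmh1Δ (0.966% of all tested genes rose and 0% fell) and 0 rose in bmh2Δ (2.90% rose and 2.63% fell). Each test uses 1 spread per gene for all 4 groups, so the wider spread of bmh1Δ enters the bmh2Δ tests. In bmh2Δ 4 of the 8 genes were under 0.05 before adjustment, beside 19.2% of all tested genes. The median change of the 8 genes was 1.12 in bmh1Δ and 1.16 in bmh2Δ, beside 0.14 and 0.05 over all tested genes. In bmh1Δ other scalings of the libraries moved the median of all genes from 0.14 to -0.03 (quantile) or -0.04 (median of ratios).

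**Figure D2:**
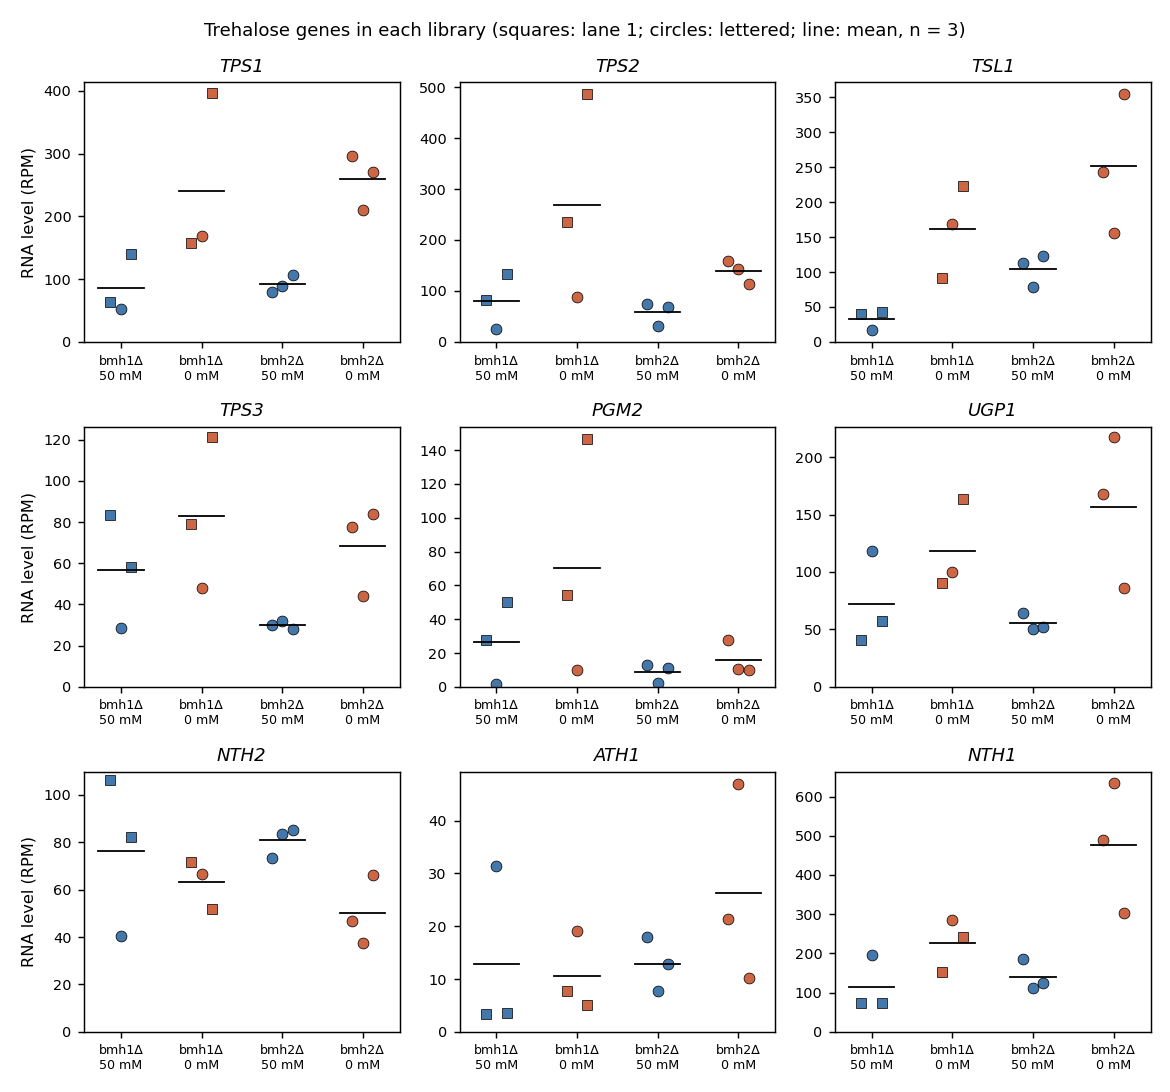
Level of each gene in RPM (linear axis from 0) in the 12 libraries, with squares for lane 1, circles for lettered libraries, blue for 50 mM and orange for 0 mM KCl, and a line at the mean of 3. The 6 libraries without KCl all lie above the 6 with KCl for *TPS1*. Within bmh1Δ lane 1 stands apart from the lettered libraries for *PGM2* and *ATH1*.

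*TPS1*, the gene of the trehalose 6-phosphate synthase, rose over both strains, and with all libraries its log2 change was about the same size in each. Without B0 and GTCACG the change in bmh1Δ was 2.33. In bmh1Δ it was at 62.9 (GGATAT), 53.1 (B50) and 141 RPM (CTATAG) with KCl and at 157 (GTCACG), 168 (B0) and 397 RPM (TGCACT) without. The bmh2Δ libraries were at 79.3 (C50), 89.1 (D50) and 107 RPM (E50) with KCl and at 296 (C0), 270 (D0) and 211 RPM (E0) without. The lowest of the 6 libraries without KCl, GTCACG, was above the highest of the 6 with KCl, CTATAG. The share of all tested genes ordered in this way was not counted. After subtraction of the other lane 1 libraries GTCACG holds 114 RPM of *TPS1*, and the order is then lost. The mean level went from 85.6 ± 48.0 to 241 ± 135 RPM in bmh1Δ and from 91.7 ± 13.9 to 259 ± 43.5 RPM in bmh2Δ (SD, n = 3), 2.81-fold and 2.82-fold. The log2 change was 1.48 in each strain, with a standard error (SE) of 0.43, and 1.48 over both (SE 0.31). The fit uses 1 spread per gene for all 4 groups. An SE is therefore the same in both strains, although the bmh1Δ libraries vary more, and is not the precision of either strain alone. Only the change over both strains passed, with an adjusted p of 0.013 in limma, against 0.16 in bmh1Δ and 0.074 in bmh2Δ. It passed under each of 24 alternatives, with adjusted p from 0.0011 to 0.041. Within lane 1 the bmh1Δ difference was 1.40 and between B0 and B50 it was 1.65 on the log2 scale.

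*TSL1*, the gene of a large regulatory subunit of the complex, had the largest log2 change of the 8 genes in bmh1Δ and over both strains when all libraries were used. Its levels in bmh1Δ were 39.4, 17.0 and 43.3 RPM with KCl (GGATAT, B50 and CTATAG) and 91.0, 169 and 223 RPM without (GTCACG, B0 and TGCACT). In bmh2Δ they were 113, 78.7 and 122 RPM with KCl (C50, D50 and E50) and 243, 354 and 155 RPM without (C0, D0 and E0). The groups did not overlap in either strain. The mean rose 4.85-fold in bmh1Δ, from 33.2 ± 14.2 to 161 ± 66.5 RPM, and was 2.40-fold higher in bmh2Δ, 105 ± 22.9 against 251 ± 99.8 RPM (SD, n = 3). The log2 change was 2.26 (SE 0.46, limma adjusted p = 0.047) in bmh1Δ, 1.20 (SE 0.46, adjusted p = 0.17) in bmh2Δ and 1.73 (SE 0.32, adjusted p = 0.0082) over both. The change in bmh1Δ alone is a borderline call. It stayed under the threshold when GTCACG was left out, and with any of the other 11 libraries left out its adjusted p was 0.059 to 0.19. Without B0 and GTCACG the change in bmh1Δ was 2.82, below the 3.18 of *PGM2* and the 2.88 of *TPS2*. Over both strains the highest value of any alternative was 2.10 for *TPS2* and 2.06 for *PGM2*, against 2.01 for *TSL1*. The change over both strains passed under each of 24 alternatives, with adjusted p up to 0.029. Within lane 1 the bmh1Δ difference was 1.76 and between B0 and B50 it was 3.24.

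*TPS2*, the gene of the phosphatase, and *TPS3*, that of the second large subunit, had higher means without KCl and did not pass the test, though both passed over both strains with the lane or the letter as a term. *TPS2* was at 81.6, 25.5 and 133 RPM in bmh1Δ with KCl (GGATAT, B50, CTATAG) and at 235, 87.4 and 486 RPM without (GTCACG, B0, TGCACT). The low values of both groups are those of B50 and B0, and the groups overlap. In bmh2Δ *TPS2* was at 73.6, 32.2 and 67.7 RPM with KCl (C50, D50, E50) and at 159, 113 and 144 RPM without (C0, D0, E0), with no overlap. Its log2 change was 1.71 (SE 0.67) in bmh1Δ, 1.32 (SE 0.67) in bmh2Δ and 1.51 (SE 0.48, limma adjusted p = 0.070) over both. Within lane 1 and between B0 and B50 the bmh1Δ differences of *TPS2* were close, at 1.69 and 1.74. *TPS3* was at 83.5, 28.4 and 58.1 RPM in bmh1Δ with KCl and at 78.9, 48.1 and 121 RPM without, in the same order of libraries. The bmh2Δ values were 29.9, 31.9 and 27.9 RPM with KCl and 77.8, 83.9 and 44.1 RPM without, again with no overlap. Its log2 change was 0.57 (SE 0.45) in bmh1Δ, 1.12 (SE 0.45) in bmh2Δ and 0.84 (SE 0.32, adjusted p = 0.13) over both.

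The summed level of *TPS1*, *TPS2*, *TPS3* and *TSL1* separated the conditions in each strain. In bmh1Δ the sum was 124 to 375 RPM with KCl and 473 to 1227 RPM without. In bmh2Δ it was 232 to 325 RPM with KCl and 554 to 822 RPM without. The highest sum with KCl, in CTATAG, was below the lowest without, in B0.

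*UGP1*, which supplies UDP-glucose to trehalose, glycogen and cell wall synthesis, rose over both strains, and *PGM2* did not pass. In bmh2Δ *UGP1* was at 64.2, 50.6 and 52.3 RPM with KCl (C50, D50, E50) and at 168, 85.9 and 217 RPM without (C0, D0, E0). In bmh1Δ it was at 40.6 and 57.2 RPM in lane 1 with KCl and at 90.4 and 163 RPM in lane 1 without. B50 and B0 were at 118 and 99.9 RPM, so the lettered pair ran the other way and the bmh1Δ groups overlap. The log2 change was 0.80 (SE 0.45, limma adjusted p = 0.57) in bmh1Δ, 1.39 (SE 0.45, adjusted p = 0.10) in bmh2Δ and 1.09 (SE 0.32, adjusted p = 0.0497) over both. Of the alternatives 8 of 24 kept the *UGP1* call. It was kept without B50 or without D0 and was lost with any of the other 10 libraries left out, with adjusted p up to 0.12. Within lane 1 the bmh1Δ difference was 1.32 and between B0 and B50 it was -0.24.

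In bmh1Δ *PGM2* differed more between lane 1 and the lettered libraries than between conditions. It was at 27.5 and 50.4 RPM in the lane 1 libraries with KCl and at 54.2 and 146 RPM in those without, beside 1.92 RPM in B50 and 9.74 RPM in B0. In bmh2Δ, where all libraries have letters, it was at 12.6, 2.02 and 11.2 RPM with KCl (C50, D50, E50) and at 27.6, 9.78 and 10.6 RPM without (C0, D0, E0). The groups overlap in both strains, and the change over both was 1.20 (SE 0.81, limma adjusted p = 0.45). The *UGP1* level was 1.12 to 1.67 times that of *PGM2* in the 4 lane 1 libraries and 4.66 to 61.3 times in the 8 lettered ones. At 50 mM KCl B50 differed from the mean of the lane 1 libraries of the same strain by -3.71 for *PGM2*, -1.99 for *TPS2* and 2.87 for *ATH1* on the log2 scale. Over all tested genes the median size of that difference was 1.17.

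The genes of breakdown did not move as 1 group. *NTH2*, the gene of a neutral trehalase, was at 106, 40.2 and 82.2 RPM in bmh1Δ with KCl (GGATAT, B50, CTATAG) and at 71.6, 66.5 and 51.9 RPM without (GTCACG, B0, TGCACT). In bmh2Δ it was at 73.4, 83.6 and 85.3 RPM with KCl (C50, D50, E50) and at 46.6, 66.2 and 37.4 RPM without (C0, D0, E0). The groups do not overlap in bmh2Δ, where the values without KCl are the lower ones, and they overlap in bmh1Δ. The log2 change was -0.17 (SE 0.36) in bmh1Δ, -0.72 (SE 0.36) in bmh2Δ and -0.44 (SE 0.26, limma adjusted p = 0.36) over both. The bmh1Δ value turned to 0.12 without GGATAT. Without B50, the 1 library of bmh1Δ with KCl below 80 RPM, the change over both strains was -0.64 with an adjusted p of 0.042, in a fit where 8.75% of all tested genes fell.

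*ATH1*, the gene of the acid trehalase, did not pass, and in bmh1Δ it was higher in the lettered libraries than in lane 1. It was at 3.36 and 3.53 RPM in lane 1 with KCl, at 7.74 and 5.06 RPM in lane 1 without, and at 31.4 and 19.2 RPM in B50 and B0. Levels in bmh2Δ were 18.0, 7.71 and 12.8 RPM with KCl (C50, D50, E50) and 21.4, 10.2 and 47.0 RPM without (C0, D0, E0). Both pairs of groups overlap. The mean level in bmh1Δ ran from 12.8 ± 16.2 to 10.7 ± 7.50 RPM (SD, n = 3), opposite in sign to the mean of the logs. The change over both strains was 0.52 (SE 0.57, limma adjusted p = 0.68), and its sign in bmh1Δ, 0.25 on the log2(RPM + 1) scale, was negative under 5 alternatives, from -0.11 (quantile normalization) to -0.51 (without B0 and GTCACG).

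*NTH1*, the gene of the main neutral trehalase, rose over both strains and in bmh2Δ. In bmh1Δ it was at 74.3, 197 and 74.1 RPM with KCl (GGATAT, B50, CTATAG) and at 151, 286 and 241 RPM without (GTCACG, B0, TGCACT). The levels in bmh2Δ were 185, 112 and 125 RPM with KCl (C50, D50, E50) and 488, 304 and 634 RPM without (C0, D0, E0). The groups overlap in bmh1Δ through B50 and do not in bmh2Δ. The log2 change was 1.08 (SE 0.45, limma adjusted p = 0.35) in bmh1Δ, 1.72 (SE 0.45, adjusted p = 0.049) in bmh2Δ and 1.40 (SE 0.32, adjusted p = 0.017) over both. The last value passed in 22 of 24 alternatives, failing without D50 (adjusted p = 0.054) and without C0 (0.052). The call in bmh2Δ was kept without B50 and lost with any of the other 11 libraries left out, with adjusted p up to 0.19. The ratio of *NTH1* to *NTH2* within a library was 1.34 to 2.52 in bmh2Δ with KCl and 4.58 to 17.0 without, and in bmh1Δ it was 0.700 to 4.88 with KCl and 2.12 to 4.64 without.

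**Figure D3:**
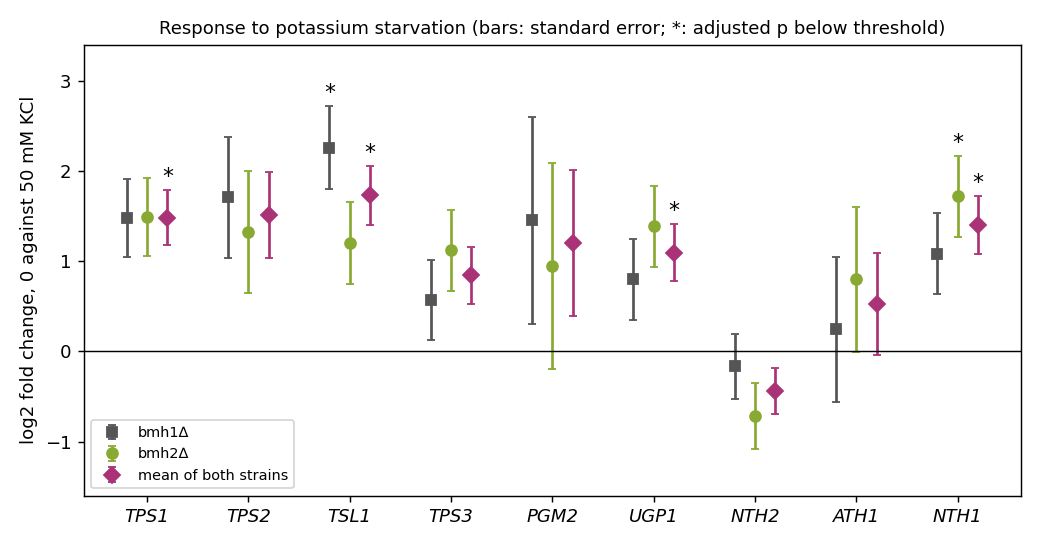
Log2 fold change from 50 to 0 mM KCl on the log2(RPM + 1) scale, with the standard error of the fit, in bmh1Δ (squares), bmh2Δ (circles) and over both strains (diamonds). An asterisk marks an adjusted p under 0.05, which over both strains holds for *TPS1*, *TSL1*, *UGP1* and *NTH1*, and *NTH2* is the only gene drawn below 0.

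Counted by overlap, *TPS1* and *TSL1* were higher in every library without KCl than in any with KCl in bmh1Δ, which is 2 of 8 genes where 9.44% of tested genes were so, and 0 were lower (3.16%). With B0 and GTCACG after subtraction only *TSL1* was so separated, 1 of 8 genes beside 8.56%. In bmh2Δ *TPS1*, *TPS2*, *TPS3*, *TSL1* and *UGP1* were higher, which is 5 of 8 genes beside 20.2%, and *NTH2* alone was lower (20.5%). An exact permutation test of 3 libraries against 3 cannot go below p = 0.1 (two-sided), which is the value of each of these separated genes. With lane 1 against the lettered libraries as a term in the fit, 3 of the 8 genes rose in bmh1Δ (7.54% of tested genes), 4 in bmh2Δ (10.6%) and 6 over both strains (17.0%). The 3 added over both strains were *TPS2* (limma adjusted p = 0.00093), *TPS3* (0.0079) and *PGM2* (0.044). Cultures with and without KCl were started in pairs from 1 overnight culture, and the shared letters may mark such pairs, which the labels do not state. With the letter as a replicate block 3 of the 8 genes rose in bmh1Δ (5.59% of tested genes), 4 in bmh2Δ (9.76%) and 6 over both strains (15.5%), with adjusted p for the same 3 added genes of 0.0013, 0.011 and 0.016. In that block the lane 1 libraries share 1 level, so within bmh1Δ it is the same split as the lane term and no lane 1 cultures are paired. With only the bmh2Δ libraries in the fit, 5 of the 8 genes rose in bmh2Δ (12.1%), and these were the 5 with separated groups.

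No difference between the strains in their response to potassium passed the test of that difference. Of all tested genes 0% passed in limma (169 were under 0.05 before adjustment), and among the 8 genes 0 were under 0.05 before adjustment. For *TPS1* the bmh2Δ response minus the bmh1Δ response was 0.00 (SE 0.61) on the log2 scale. Over 24 alternatives this value ran from -0.85 to 0.43 and had the opposite sign in 8. The largest of these differences among the 8 genes was that of *TSL1*, -1.05 (SE 0.65, adjusted p = 0.99). These standard errors leave room for differences of more than 2-fold.

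Between the strains the clearest separation was that of *TSL1* with KCl. Its levels of 78.7 to 122 RPM in bmh2Δ were all above the 17.0 to 43.3 RPM of bmh1Δ, a log2 difference of 1.70 (SE 0.46) that did not pass in limma (adjusted p = 0.17). Without B50, the lowest library, it had an adjusted p of 0.045 in a fit where 11.3% of all tested genes were higher in bmh2Δ. With the lane term the difference was 2.03 (adjusted p = 0.12). In the fit without B50 *TPS3* was lower in bmh2Δ, with a log2 difference of -1.19 (adjusted p = 0.049), as were 14.1% of all tested genes. With all libraries it was -0.77 (adjusted p = 0.39) and with the lane term -0.01. Between the strains 0 of the 8 genes passed at either KCl concentration, where 0.0568% of all tested genes passed with KCl and 0.0189% without. With KCl 874 of 5278 tested genes were under 0.05 before adjustment, and *TSL1* was the only 1 of the 8 among them. Without KCl 607 were, with 0 of the 8 among them. The share of all tested genes separated between the strains, as *TSL1* was with KCl, was not counted. At 0 mM KCl *TSL1* overlapped between the strains, 91.0 to 223 RPM against 155 to 354 RPM. For *TPS2* and *PGM2* the sign of the strain difference depends on the lane term: with KCl it was -0.26 and -1.03 without it, and 1.05 and 1.23 with it. Strain and lane 1 are told apart only through B50 and B0.

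Within single libraries the large subunits *TSL1* and *TPS3* stood in a different ratio in bmh1Δ with KCl than in the other groups. The *TSL1* level was 0.472 (GGATAT), 0.599 (B50) and 0.746 (CTATAG) times that of *TPS3* there, and 1.15 (GTCACG), 3.52 (B0) and 1.84 (TGCACT) times without KCl. In bmh2Δ it was 2.47 to 4.38 times with KCl and 3.13 to 4.22 times without. The 3 bmh1Δ libraries with KCl, B50 among them, were the only ones below 1. A ratio within a library does not depend on the scaling of that library. It compares tags of different genes, whose yield may differ, so it is read across libraries only and was not tested.

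**Figure D4:**
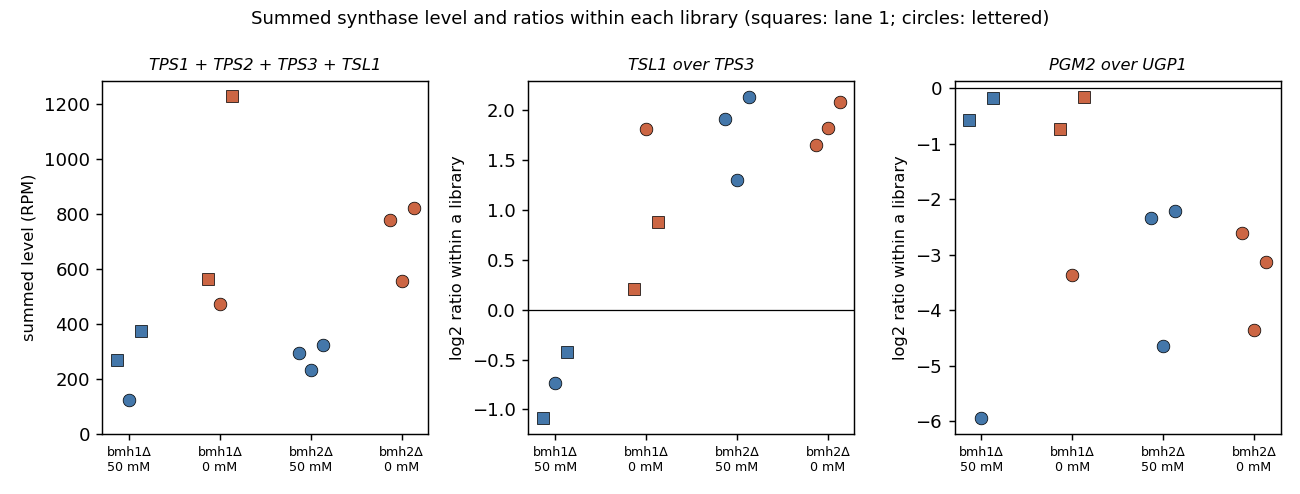
Left, summed level of *TPS1*, *TPS2*, *TPS3* and *TSL1* in RPM (linear axis from 0). Middle and right, log2 ratio of *TSL1* to *TPS3* and of *PGM2* to *UGP1* within each library, with squares for lane 1 and circles for lettered libraries. The *TSL1* ratio is below 0 only in the 3 bmh1Δ libraries with KCl, and the *PGM2* ratio separates lane 1 from the lettered libraries.

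Several other genes around trehalose and glucose phosphates also rose. Of 8 such genes (*NTH1*, *PGM1*, *PGM3*, *MAL11*, *HXK1*, *HXK2*, *GLK1* and *EMI2*) 5 rose over both strains and 0 fell, with a median change of 1.22, beside 6.74% and 3.85% of all tested genes. The 4 with the smallest adjusted p were *PGM3*, a minor phosphoglucomutase (1.53, SE 0.31, limma adjusted p = 0.012), *NTH1*, and the glucose-phosphorylating *HXK1* (1.75, SE 0.40, 0.019) and *GLK1* (1.52, SE 0.41, 0.038). In bmh1Δ 0 of these 8 genes passed and in bmh2Δ 2 rose, *PGM3* and *NTH1*, beside 0.966% and 2.90% of all tested genes.

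Of 14 tested genes of the general stress response, the known targets of Msn2 and Msn4, 10 rose over both strains and 0 fell, with a median of 1.39, where 6.74% of all tested genes rose and 3.85% fell. *SOD2*, the mitochondrial superoxide dismutase (1.50, SE 0.20, limma adjusted p = 0.0013), *HSP104*, a disaggregase (1.63, SE 0.23, 0.0019), *ALD3*, an aldehyde dehydrogenase (1.77, SE 0.36, 0.012), and *RTN2*, a reticulon (1.40, SE 0.30, 0.014), had the smallest adjusted p. *SOD2* also rose in each strain alone and *HSP104* in bmh2Δ. Of 17 regulators of trehalase, of protein kinase A and of Msn2 and Msn4, 5 rose over both strains and 0 fell, with a median of 0.44, beside 6.74% and 3.85% of all tested genes. The 4 with the smallest adjusted p were *DCS1* (1.40, SE 0.29, adjusted p = 0.013), described as an inhibitor of neutral trehalase, its paralogue *DCS2* (1.61, SE 0.38, 0.021), which is also on the stress list, *TPK2* (0.90, SE 0.22, 0.024), a catalytic subunit of protein kinase A, and *CYR1* (0.68, SE 0.18, 0.034), the adenylate cyclase. In either strain alone 0 of the 17 passed, beside 0.966% of all tested genes that rose in bmh1Δ and 2.90% in bmh2Δ.

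Genes of glycogen and of the other uses of UDP-glucose were counted in the same way. Over all tested genes, the shares that rose were 0.966% in bmh1Δ, 2.90% in bmh2Δ and 6.74% over both strains, so that a count of 0 in a short list is near them. Of 12 tested genes of glycogen synthesis and breakdown 0 passed in limma in either strain or over both, with medians of 0.68 in bmh1Δ, 0.11 in bmh2Δ and 0.29 over both. Of 5 tested genes of the remaining users of UDP-glucose 0 passed, and their median was -0.59 over both strains.

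The profile of a gene over the 12 libraries was also compared with all other tested genes, by the root mean square difference of log2(RPM + 1) after centring each gene on its mean. This is a description that includes the differences between lane 1 and the lettered libraries. The profile nearest to *TPS1* was that of *GRE3*, an aldose reductase gene (0.23), followed by *SWD1* and *DOA4*, with a median distance of 1.04 to all other genes. For *TPS2* the nearest were *OM45* (0.22), *STF1* and *PST1*, and for *TPS3* they were *KSS1* (0.20), *AAD4* and *COX17*. *TSL1* and *PGM2* had no neighbour as close, with *ANB1* at 0.40 and *MTH1* at 0.56. The next were *MIR1* and YLR177W for *TSL1*, and *RRT8* and *BOP3* for *PGM2*. *UGP1* was nearest to *CRC1* (0.22), YPL014W and *HOP2*. *NTH2* was nearest to *TRM10* (0.12), *IRC22* and *CCT5*, and *ATH1* to *RIM11* (0.20), *RIM20* and *SAC3*. Among the pathway genes themselves the closest pair was *UGP1* and *NTH1* (0.45), and *TPS1* was at 0.64 from *TPS2*, 0.66 from *TPS3* and 0.67 from *TSL1*.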

How the data were processed

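Tags of bmh1Δ and bmh2Δ cells were read in 12 libraries, 3 in each of 4 groups of strain and KCl. The deposited values are RPM per gene, made by the authors by SAGE-tag counting, and each library sums to 1000000. Which aligner, genome build and annotation were used is not given in the sources used here. All value columns were used, and libraries were placed in groups by column name. The nature of the replicates is not stated, so p-values measure the spread between these libraries.

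As RPM are not counts, limma 3.58.1 (R 4.3.3) was fitted to log2(RPM + 1) of all 12 libraries, with a mean per group, trend and robust variances and two-sided tests, after a filter of 3 RPM in 3 libraries. Fold changes on this scale understate the change of low genes. The fit was also run on simulated data with less noise than these libraries and the same spread in every group. That run therefore does not measure its error rates here. The 8 genes are named whatever their result, with *NTH1*, up to 4 passing genes of each related list by adjusted p, and the 3 nearest profiles. Members and lists were chosen with earlier results of these data known. LEU2, MET17, DDR2 and HOR7 were not matched by name. Positions and sequences are from RefSeq build R64. Alternatives were other pseudocounts, filters, scalings, variance options, sample sets, a replicate block, lane 1 against the lettered libraries as a term and another threshold. Other steps used matplotlib 3.10.9, pandas 2.3.3, SciPy 1.17.1, NumPy 2.4.6 and Python 3.11.15.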

Additional observations from a re-analysis of the deposited data

How the results depend on the processing

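Over both strains the count of members that rose, 3, was 2 to 3 with any 1 library left out, where 196 to 580 of all tested genes rose. Without B50 1 member (*NTH2*) fell, as did 8.75% of all tested genes. The count in bmh1Δ, 1, was 0 to 1 (19 to 81 of all tested genes), and that in bmh2Δ, 0, was 0 to 2 (25 to 333). Between the strains at 50 mM KCl 0 to 1 members were higher and 0 to 1 lower, both only without B50, where 11.3% and 14.1% of all tested genes were. The bmh1Δ count was 0 with a pseudocount of 5 RPM (36 of 5278 tested genes rose) and with a filter of 10 RPM (37 of 4832). It was also 0 with quantile (31 of 5278) or median-of-ratios scaling (26 of 5278), and with only the groups compared in the fit (2 of 5184). So few genes rose in these fits that a count of 0 says little about the members. In bmh2Δ it was 5 with only the groups compared (12.1% of all tested genes) and 1 at an adjusted p of 0.1 (266 of 5278). With the lane term the counts were 6 over both strains, 3 in bmh1Δ and 4 in bmh2Δ, beside 17.0%, 7.54% and 10.6% of all tested genes.

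With a replicate block by culture letter the counts were 6, 3 and 4, beside 15.5%, 5.59% and 9.76% of all tested genes. The lane 1 libraries have no letter and shared 1 level of the block. Within bmh1Δ the block is therefore the same split as the lane term and not a second, separate adjustment. That a letter marks 1 overnight culture is not stated, and the replicate numbers of the labels could not be tied to columns. Same-letter libraries with and without KCl had deviations from their group means with correlations of 0.07 (C), 0.25 (D), -0.29 (E) and 0.88 (B, against lane 1). Between different letters of bmh2Δ the correlations ran from -0.60 (C50 with D0) to 0.53 (C50 with E0), so same-letter libraries were not the most alike there. The strain comparisons could not be fitted under the block. After seeing the data, the reads that other libraries could have given were subtracted from B0 and GTCACG. This left counts of 2 over both strains, 1 in bmh1Δ and 0 in bmh2Δ, beside 331, 56 and 120 of 5287 tested genes that rose. Single-gene changes turned sign under some alternatives, among them those given above for *NTH2*, *ATH1*, *TPS2* and *PGM2*. The causes of these shifts were not tested, apart from the fewer libraries where some were left out. The least deep library, B50, has a value step of 0.160 RPM, so the lowest *PGM2* level, 1.92 RPM, is 12 steps.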
